A study of Mus musculus with 5 samples.

Results

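Havcr1-positive proximal tubule cells were the 503 cell barcodes, of 37382 kept in the whole series, that carried at least 3 unique molecular identifiers (UMIs, single captured transcripts) of Havcr1 together with at least 2 UMIs of the proximal tubule genes Lrp2 and Slc34a1 combined. They made up 1.57% of the 32023 proximal tubule barcodes (exact 95% interval 1.44 to 1.71, counting error only). A kept barcode had at least 3000 UMIs, at least 200 detected genes and at most 25% of its UMIs on mitochondrial genes. The tubule barcodes also had no UMI of the proliferation genes Mki67 and Top2a, the leukocyte gene Ptprc or the endothelial gene Pecam1. They were set against 29038 Havcr1-negative tubule barcodes, which met the same limits and held no Havcr1 UMI. A further 2482 tubule barcodes with 1 or 2 Havcr1 UMIs belonged to neither class.

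The study took mouse kidneys after a sham operation and 1, 3, 14 or 28 days after unilateral ischemia-reperfusion (UIR) of the left kidney, a model of acute kidney injury (AKI) that passes into chronic kidney disease, and sequenced single cells with a droplet-based 3′ kit. The mice were male C57BL/6J animals. The labels hold 1 record for each of the 5 conditions, while the methods take each kidney sample from 3 mice and speak of more matrices than the 5 libraries of the deposited matrix, so a library here may join cells of several animals. The labels named the cell type as goblet cells, a mucus-secreting type of gut and airway. No goblet marker of the 8 checked (Muc2, Tff3, Fcgbp, Zg16, Spink4, Clca1, Spdef and Agr2) had a UMI in over 0.0963% of kept barcodes, and in the Havcr1-positive cells Spdef had a UMI in 3 of 503 and the other 7 had none.

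Havcr1 encodes kidney injury molecule 1 (KIM-1), a phosphatidylserine receptor that injured proximal tubule cells place on their luminal membrane and use to take up dying cells and debris. The proximal tubule reabsorbs most of the filtered glucose, amino acids and phosphate and relies on fatty acid oxidation for energy, which makes it sensitive to loss of blood flow. After ischemia, surviving tubule cells are known to lose part of their transport program, to turn on genes of the developing nephron and of inflammation, and then either to redifferentiate or to persist in an inflamed state marked by Vcam1.

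The deposited matrix pooled the libraries, and the number that ends each barcode (its suffix, 1 to 5) marked the library without saying which condition it was. The matrix therefore counted as 1 sample, no value below is tied to a day, and no test or p-value was given. Values are listed by suffix, and intervals around a ratio or a share cover counting error only. Levels are CPM, the UMIs of a gene among 1e6 UMIs of the summed cells of a class. Total UMIs per library ran from 82426945 to 139382799, with 5922 to 11958 kept barcodes. The Havcr1-positive cells were deeper than the Havcr1-negative ones in each library: their median UMIs in suffixes 1 to 4 were 12329, 12823, 9358 and 11024, against 7296, 7376, 5846 and 6263. Their median mitochondrial share was 11.6, 9.51, 9.15 and 10.5%, against 12.9, 11.6, 9.39 and 11.3%. In suffix 4, 1 of the 34 Havcr1-positive cells held 87269 of their 483322 UMIs, so each level in that class leans on this cell. No 2 Havcr1-positive cells in different suffixes shared a barcode sequence, and 8 shared one with another kept barcode.

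The cells were spread unevenly over the libraries. Suffix 3 held 325 of them, or 3.45% of its 9418 proximal tubule barcodes (3.09 to 3.84). Suffix 2 held 103 of 5461, or 1.89% (1.54 to 2.28), suffix 1 held 41 of 5018, or 0.817% (0.587 to 1.11), and suffix 4 held 34 of 5792, or 0.587% (0.407 to 0.819). Suffix 5 held 0 of 6334, which allows a share of up to 0.0474% by a floor of 3 counts and has an exact upper limit of 0.0582%, the one drawn in the plot of shares. The intervals of suffixes 1 and 4 overlapped, and those of suffixes 2 and 3 lay above both without overlapping each other.

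**Figure D1:**
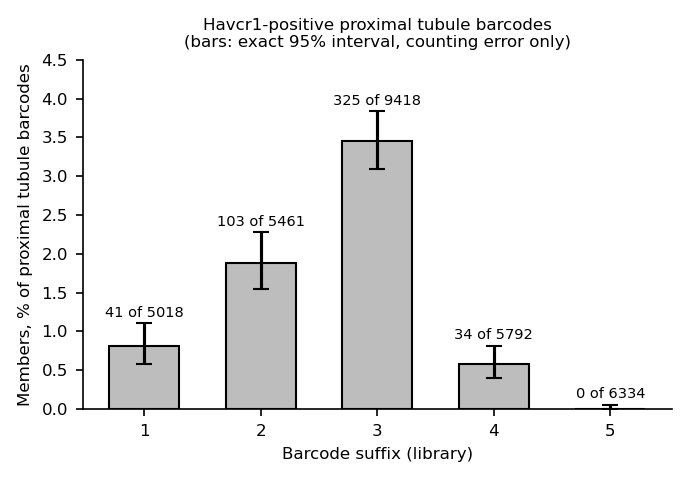
Share of proximal tubule barcodes that were Havcr1-positive (y axis, percent) in the library of each barcode suffix (x axis), with exact 95% intervals that cover counting error only and the counts above the bars. The share was highest in suffix 3, at 3.45%, and suffix 5 held 0 of 6334.

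The cells were selected on their UMIs of Havcr1, Lrp2, Slc34a1, Mki67, Top2a, Ptprc and Pecam1, so the Havcr1 level is a description. It stood at 1176, 871, 556 and 532 CPM in the Havcr1-positive cells of suffixes 1 to 4. Among near-empty barcodes of 10 to 100 UMIs, which hold free RNA, Havcr1 reached 3.29, 21.1, 52.4, 2.80 and 0 CPM in suffixes 1 to 5, so suffix 3 had both the most Havcr1-positive cells and the most free Havcr1 RNA. Barcodes of other cell types were counted as well, but they had to hold no Lrp2 or Slc34a1 UMI. That favours barcodes with little free tubule RNA, so they set no upper limit for what free RNA can give. None of 383 leukocyte barcodes (median depth 4931 UMIs) and none of 56 endothelial barcodes (7971 UMIs) reached 3 Havcr1 UMIs. A single UMI or more was present in 1.83% and 1.79% of these, against 9.32% of proximal tubule barcodes. These shares join the libraries, which differed. Of the 7 leukocyte Havcr1 UMIs, 5 lay in the 70 leukocyte barcodes of suffix 3, at 15.04 CPM against 0.852 in suffix 2. Whether these UMIs were free RNA or the cells' own was not tested. Proximal tubule barcodes with a Havcr1 UMI were 22.4% in suffix 3 and 6.98% in suffix 2. Among 146 barcodes of the thick ascending limb (6278 UMIs), the next nephron segment with a strong transport program, 1 reached 3 UMIs and 8.22% had at least 1. Havcr1 lies on chromosome 11, 46735080 to 46779578, plus strand of the mm10 (GRCm38) genome.

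Fgg, Gdf15 and Tnfrsf12a were proposed as marks of these cells from earlier results of the same data, so their higher levels are a description and not independent support. The UMI limits did not use them, and each stood higher in the Havcr1-positive than in the Havcr1-negative cells of the same library. Tnfrsf12a, the receptor (Fn14) for the cytokine TWEAK, measured 574, 350.4, 467 and 494 CPM in the Havcr1-positive cells of suffixes 1 to 4. In Havcr1-negative cells it measured 55.2, 55.8, 214 and 116 CPM, so that every Havcr1-positive value lay above every Havcr1-negative one. The log2 ratio was 2.65 in suffix 2 (interval 2.51 to 2.79) and 1.12 in suffix 3 (1.05 to 1.20). Fgg, the fibrinogen gamma chain, a clotting protein made mainly by liver, measured 105, 338, 404 and 776 CPM against 26.1, 85.3, 205 and 67.7. Its level in Havcr1-negative cells of suffix 3 exceeded that of Havcr1-positive cells in suffix 1, so the classes overlapped between libraries though not within any of them. Gdf15, a stress-induced cytokine of the TGF-β superfamily, measured 1245, 703, 814 and 1229 CPM against 343, 266, 530.4 and 886, with log2 ratios of 1.86, 1.40, 0.62 and 0.47. These 2 genes thus passed 2-fold in some libraries and not in others.

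Because the Havcr1-positive cells were deeper, shares of cells with a transcript were also counted after every cell was thinned to 3000 UMIs. Tnfrsf12a was then present in 54.4% and 66.5% of the Havcr1-positive cells of suffixes 2 and 3 (44.3 to 64.2 and 61.04 to 71.6) and in 11.6% and 38.8% of the Havcr1-negative ones. Leukocyte barcodes of all libraries, as background, had it in 8.62%. Their choice, without Lrp2 and Slc34a1, can lower this share and the leukocyte shares below. Before thinning, 449 of the 503 had a UMI. Gdf15 was present in 58.3% and 60.00% (48.1 to 67.9 and 54.4 to 65.4) against 22.8% and 41.4%, with 8.09% of leukocytes and 400 of 503 before thinning. Fgg was present in 45.6% and 45.8% (35.8 to 55.7 and 40.3 to 51.4) against 13.9% and 33.03%, with 1.57% of leukocytes and 325 of 503 before thinning. Havcr1 itself was present in 79.3% of these cells at this depth. Fgg lies on chromosome 3, 83007724 to 83015049, plus strand, Gdf15 on chromosome 8, 70629393 to 70632456, minus strand and Tnfrsf12a on chromosome 17, 23675445 to 23677468, minus strand.

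The limit of 3 UMIs fell within a continuous range of Havcr1 counts. The levels at each count are averages over cells, which cannot tell a gradual change from a mixture of unlike cells. In suffix 3 there were 134 cells with exactly 3 Havcr1 UMIs just inside it and 386 with exactly 2 just outside, and in suffix 2 there were 16 and 49. Tnfrsf12a stood at 275 CPM just inside and 233 just outside in suffix 2, and at 406 and 321 in suffix 3. Fgg stood at 285 just inside and 399 just outside in suffix 2, and at 468 and 366 in suffix 3. Tnfrsf12a in cells with 2 UMIs thus lay between that in cells with 3 and that in Havcr1-negative cells, which was 55.8 and 214 CPM in the same libraries. The plot of levels by Havcr1 count shows the whole course.

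**Figure D2:**
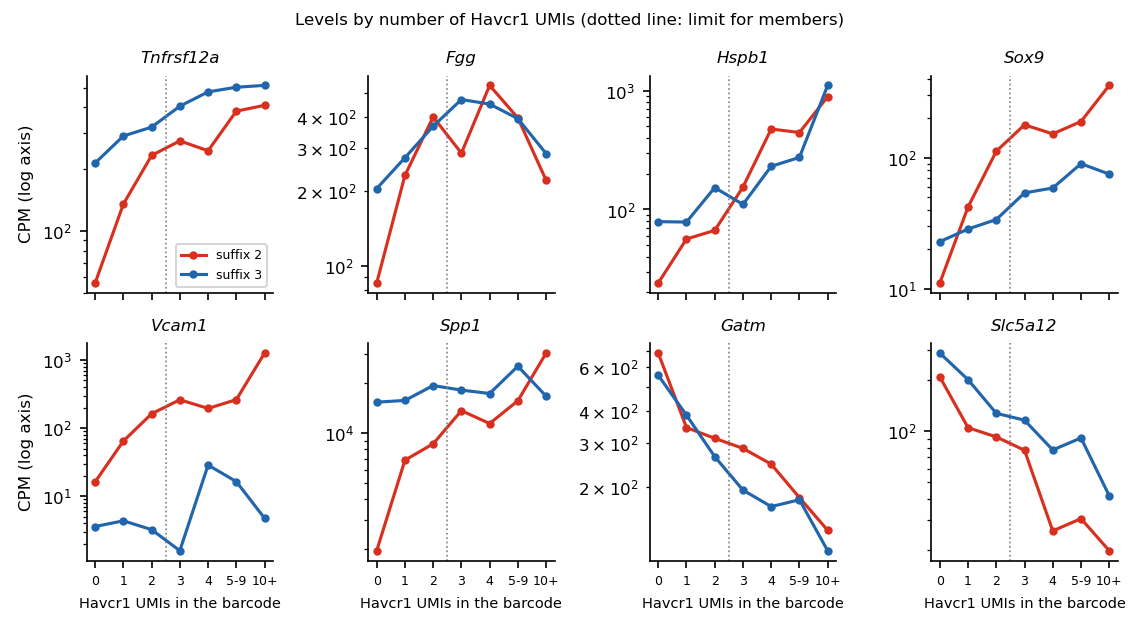
Level of 8 genes (y axis, CPM, log axis) in proximal tubule cells with 0 to 10 or more Havcr1 UMIs (x axis) in suffixes 2 (red) and 3 (blue), with the limit for Havcr1-positive cells as a dotted line. Gatm and Slc5a12 were lower in each class with 3 or more UMIs than in the class with 0, and Vcam1 reached 1262 CPM with 10 or more UMIs in suffix 2 and at most 28.7 CPM in suffix 3.

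Along these steps, Hspb1, the small heat shock protein Hsp27, stood at 24.04 CPM with no Havcr1 UMI and 890.1 with 10 or more in suffix 2, and at 78.96 and 1109 in suffix 3. Sox9, a transcription factor of the developing and repairing nephron, stood at 11.1 and 357 CPM in suffix 2 and at 22.9 and 75.1 in suffix 3. Gatm, which makes the creatine precursor guanidinoacetate, was the reverse, at 685 and 134 CPM in suffix 2 and at 558 and 111 in suffix 3. Fgg did not follow the steps to their end: it was highest at 4 UMIs in suffix 2, at 534 CPM, and at 3 UMIs in suffix 3, at 468, and was lower again, at 221 and 284 at 10 or more. Lrp2 and Slc34a1, which the choice required, were lowest in the cells with the most Havcr1: Slc34a1 stood at 4101 and 1106 CPM in suffix 2. The cells with 10 or more UMIs were also the deepest, with a median of 14759 UMIs in suffix 2 and 17475 in suffix 3, and the part of depth in these courses was not tested.

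Over all genes, 2989 reached 50 CPM in either class, summed over the libraries, and were not part of the choice. A gene was called higher or lower when its median log2 ratio over the libraries with at least 50 Havcr1-positive cells, suffixes 2 and 3, was at least 1 or at most -1 with the same sign in both. By this rule 103 genes (3.45%) were higher and 70 (2.34%) lower, 5.79% in all. The number rested on the library: without suffix 2 it was 40 higher, 30 of them among the 103, and 54 lower, and without suffix 3 it was 273 higher and 139 lower. The level limit itself favours a direction: 70 of the 103 higher genes reached 50 CPM only in the Havcr1-positive cells and 31 of the 70 lower ones only in the Havcr1-negative cells, so these had to differ between the classes. Of the 2624 genes at 50 CPM or more in Havcr1-negative cells, 33 were higher (1.26%) and 70 lower (2.67%). Counts over a list are therefore descriptions, and each is followed by its count among genes that reached 50 CPM in Havcr1-negative cells, where it differs. The lists were chosen with earlier results of these data known. A list with few or no calls can lie near these shares of all genes. The small libraries, suffixes 1 and 4, entered the level limit but not the median. Of the called genes, 102 of the 103 were above 0 and 69 of the 70 below 0 in all 4 suffixes, which the limit fixed in part. Among those that also reached the level in the class where they were low, the counts were 33 of 33 and 39 of 39, beside 77.9% of all 1236 genes above 0 and 79.4% of all 946 genes below 0 in both suffixes 2 and 3. The median log2 ratio of all 2989 genes was 0.06. Matching the Havcr1-negative cells to the depth of the Havcr1-positive ones left 67 genes higher, of which 66 were among the 103.

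The gene with the highest median ratio was Ankrd1, a cardiac-type ankyrin repeat protein and a common target of the YAP pathway, but it rested on few cells: 68 of the 503 had a UMI and 1 cell held 35.2% of them. Vcam1, an adhesion molecule for leukocytes, came next and was uneven between libraries. It measured 525, 656, 11.1 and 184 CPM in the Havcr1-positive cells of suffixes 1 to 4 and 17.01, 16.2, 3.59 and 2.37 in the Havcr1-negative ones. Hspb1 measured 167, 593, 397 and 339 CPM against 6.35, 24.04, 78.96 and 21.8, and its lowest Havcr1-positive value exceeded its highest Havcr1-negative one. The remaining genes of the top 15 were Aoc1, a diamine oxidase, the annexins Anxa2 and Anxa3, Sox9, the small heat shock protein gene Cryab, the protease inhibitor gene Serpina10, ceruloplasmin (Cp), the tubulin gene Tubb2b, the chemokines Cxcl1 and Cxcl2, complement C3, and Prrg4. All but Cryab and Cxcl1 reached 50 CPM only in the Havcr1-positive cells. The plot of the extreme genes shows that all 15 were above 0 in all 4 suffixes.

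**Figure D3:**
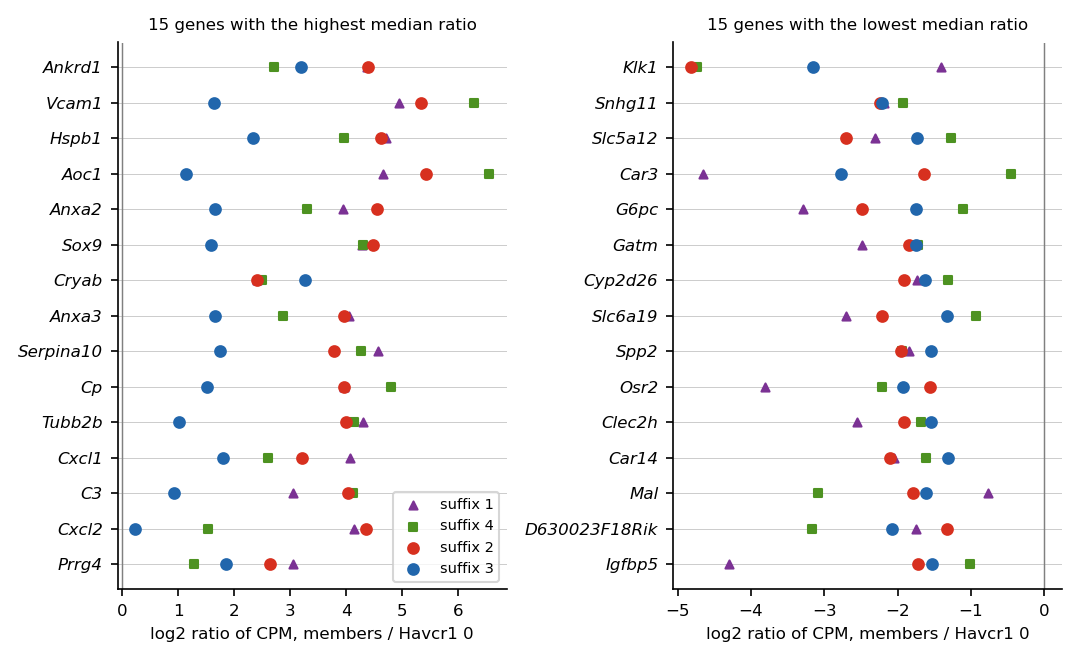
The log2 ratio of CPM between Havcr1-positive and Havcr1-negative cells (x axis) for the 15 genes with the highest and the 15 with the lowest median ratio over suffixes 2 and 3 (y axis), with suffixes 1 and 4, which held 41 and 34 cells, drawn beside them. Every point of the left panel is above 0 and every point of the right panel is under 0, and suffix 3 gave the smallest ratio for most genes on the left.

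The list of injury and dedifferentiation genes had 21 of its 28 members at 50 CPM or more, of which 13 were called higher and none lower, with a median log2 ratio of 1.43 against 0.06 over all genes. The list median was 2.29 in suffix 2 and 0.47 in suffix 3. Of the 9 at 50 CPM in Havcr1-negative cells, 4 were higher (Spp1, S100a6, S100a11 and Cryab), and their list median was 0.79 against 0.0036 over all 2624 such genes. Spp1, osteopontin, a secreted phosphoprotein of injured tubules, was the most abundant. It measured 18429, 20522, 19543 and 35850 CPM in the Havcr1-positive cells and 1060, 1963, 15380 and 3514 in the Havcr1-negative ones. The ratio was therefore large in suffixes 1, 2 and 4 and small in suffix 3, where Havcr1-negative cells were also high, at a log2 ratio of 0.35. Near-empty barcodes held 1064, 2775, 8033, 1239 and 1744 CPM of Spp1 in suffixes 1 to 5, so free RNA held Spp1 as well, and thinned leukocyte barcodes showed a Spp1 UMI in 47.00% of cells. How much free RNA added to the ratio was not tested.

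Sox9 measured 242, 248, 68.9 and 197 CPM in Havcr1-positive cells and 12.4, 11.1, 22.9 and 9.94 in Havcr1-negative ones, so each library's positive cells stood above all 4 negative values. After thinning it was present in 33.98% and 13.5% of the Havcr1-positive cells of suffixes 2 and 3 (24.9 to 43.97 and 10.01 to 17.7) and in 1.89% and 4.28% of the Havcr1-negative ones, with 0.261% of leukocytes. Anxa2, a calcium-dependent membrane-binding protein, measured 419.7, 268, 217 and 122 CPM against 27.2, 11.4, 69.3 and 12.5. Cryab, which encodes a lens-type chaperone found in many stressed cells, was one of the 3 called-higher genes without the larger ratio in suffix 2, with 938, 417, 1246 and 319 CPM against 177, 78.6, 129 and 56.6 and its highest log2 ratio, 3.27, in suffix 3. Cells with 10 or more Havcr1 UMIs gave that value, with 4513 CPM of Cryab in suffix 3 against 295 at 5 to 9 UMIs, and 1 cell held 16.6% of all its UMIs in the Havcr1-positive cells. Cdkn1a, the cell cycle inhibitor p21, had log2 ratios of 2.22, 1.58, 1.14 and 1.37 in suffixes 1 to 4.

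Not every injury gene was high. Lcn2, which encodes the urinary injury marker NGAL, measured 48.6 CPM against 29.5 in suffix 2 and 69.5 against 272 in suffix 3, opposite in sign between the libraries. Clu, clusterin, an extracellular chaperone, behaved alike, at 357 against 141 CPM in suffix 2 and 226 against 1352 in suffix 3. Sox4, a transcription factor of progenitor cells, had log2 ratios of 3.12 and -0.49 in the same libraries. Havcr1-negative cells of suffix 3 also held more distal transcripts. The collecting duct principal list summed to 27.0 CPM in Havcr1-positive cells against 141, and the thick ascending limb list to 121 against 460. In suffix 2 these sums were 10.8 against 59.1 and 39.8 against 111. The part of distal transcripts in the levels of these genes was not tested. The keratin genes Krt7 and Krt19, typical of collecting duct and urothelium, were lower in each of suffixes 1 to 4: Krt7 measured 3.63, 0.675, 22.3 and 0 CPM against 21.8, 10.4, 67.7 and 19.4, and Krt19 0, 0, 16.7 and 0 against 10.8, 7.57, 72.04 and 19.2. The keratin gene Krt20, a marker of severe tubule injury, fell under the 50 CPM limit over all libraries summed, and measured 45.4, 81.7, 38.2 and 26.9 CPM against 0.788, 1.08, 4.71 and 1.10, with log2 ratios of 6.23 and 3.02 in suffixes 2 and 3.

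Of the coagulation list, 4 of the 5 genes at 50 CPM or more were called higher and none lower, beside 3.45% and 2.34% over all genes. Of the 3 at that level in Havcr1-negative cells, Fgg and F3 were higher. All 3 fibrinogen chains were among the 4. Fga, the alpha chain, measured 29.1, 183, 183 and 329 CPM against 13.96, 37.1, 94.9 and 35.3. Fgb, the beta chain, measured 7.27, 22.3, 93.6 and 197 CPM against 4.26, 8.63, 44.8 and 13.8, and in suffix 1 it was too rare for its log2 ratio of 0.94 to be set apart from 0 (interval -1.12 to 2.15). Suffix 4 had the highest level of all 3 chains in Havcr1-positive cells and suffix 1 the lowest. Havcr1 had the reverse order in these 2 libraries. The suffix 4 class held 34 cells, 1 of them with 87269 of its 483322 UMIs, and the part of that cell was not tested. F3, tissue factor, the receptor that starts coagulation, measured 674, 329, 246 and 223 CPM against 145, 125, 141 and 73.1.

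Of the 17 genes of the integrated stress response list, 5 reached 50 CPM, and 2 of them, Gdf15 and Atf3, were called higher. Atf3, a stress-induced transcription factor, measured 1295, 1403, 737 and 633 CPM against 158, 257, 390.4 and 243. The core regulator gene Atf4 had log2 ratios of 0.14, 0.18, 0.23 and 0.07, and Ddit3, which encodes the stress factor CHOP, had 0.52, 0.14, 0.68 and -1.51, so neither passed 2-fold by the rule. These 5 genes do not stand for the whole list. Asns and Atf5, under the limit, were higher in suffixes 2 and 3. Asns measured 20.3 against 2.51 and 19.4 against 5.37 CPM, and Atf5 41.2 against 3.24 and 20.4 against 6.34. Psat1 was lower in both, at 14.2 against 20.4 and 52.8 against 67.8. None of 12 chaperone genes of the endoplasmic reticulum was called in either direction, and Hspa5 (BiP), the main one, had log2 ratios of -0.27 and 0.25 in suffixes 2 and 3. Among 9 heat shock genes at 50 CPM or more, some of which also respond to tissue dissociation, Hspb1, at that level only in Havcr1-positive cells, was the one called, and Hspa1a, a strongly inducible one, had ratios of -0.49, -0.33, -0.39 and -0.25.

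The chemokines and cytokines among the called genes are ligands that recruit or sustain leukocytes, and 4 of the 5 members of that list at 50 CPM or more were higher. Cxcl2, Cxcl10 and Il34 reached that level only in the Havcr1-positive cells, and Cxcl1 was 1 of 2 that reached it in Havcr1-negative ones. Cxcl1, a neutrophil attractant, measured 1337, 874, 538 and 469.7 CPM in Havcr1-positive cells of suffixes 1 to 4 and 79.2, 94.03, 155 and 77.7 in Havcr1-negative ones, with no overlap between the classes. It was present after thinning in 60.2% and 47.1% of the Havcr1-positive cells of suffixes 2 and 3 (50.1 to 69.7 and 41.5 to 52.7) and in 8.78% and 19.4% of the Havcr1-negative ones. Leukocyte barcodes, which can make Cxcl1 themselves, had it in 11.5%. Cxcl2, a related attractant, measured 416, 655, 61.8 and 49.7 CPM against 23.7, 32.1, 52.7 and 17.4, with an interval of its log2 ratio in suffix 3 of 0.03 to 0.42. Cxcl10, an attractant of T cells, measured 394, 317, 84.3 and 151 CPM against 44.4, 66.01, 67.3 and 28.1. Il34, a ligand of the macrophage receptor Csf1r, measured 99.9, 108, 42.7 and 49.7 CPM against 16.4, 15.96, 21.8 and 7.10. Csf1, the other ligand of that receptor, was under the level limit, at 49.1, 31.1, 16.7 and 39.3 CPM against 2.22, 3.08, 4.28 and 2.47. Ccl2, a monocyte attractant, was split by library, at 164 and 142 CPM in suffixes 1 and 2 and 1.33 and 0 in suffixes 3 and 4, with 24 of the 503 cells holding a UMI. In Havcr1-negative cells Ccl2 measured 1.31 CPM in suffix 2 and 16.7 in suffix 3, so the contrast was opposite in these libraries.

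The promoter stretches of both neutrophil chemokines are shown because they hold the same short motif close to the start. Sequences are RefSeq promoter windows of assembly GRCm38.p6, cut where the GENCODE gene begins, written 5′ to 3′ on the plus strand, with the NF-κB motif (GGGA, any base, then TTTCC) in capitals. The Cxcl1 stretch is chr5:90890995-90891240 and the Cxcl2 stretch chr5:90903649-90903870.
Cxcl1: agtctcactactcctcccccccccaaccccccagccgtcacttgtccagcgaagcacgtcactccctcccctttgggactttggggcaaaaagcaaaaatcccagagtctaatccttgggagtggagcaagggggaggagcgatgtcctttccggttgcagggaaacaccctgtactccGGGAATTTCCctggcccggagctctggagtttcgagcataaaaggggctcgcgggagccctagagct
Cxcl2: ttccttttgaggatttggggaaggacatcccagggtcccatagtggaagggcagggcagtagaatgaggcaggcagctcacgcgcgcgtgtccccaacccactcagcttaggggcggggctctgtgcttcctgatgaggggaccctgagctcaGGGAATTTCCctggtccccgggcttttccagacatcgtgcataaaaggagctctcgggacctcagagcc

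The motif spans bases 67 to 58 before the gene start in Cxcl1 and 69 to 60 in Cxcl2, and the 10 letters are the same in both. Searched on both strands, it lay in 0.356% of all 32851 windows of 250 bases before a RefSeq start. Of the 103 called-higher genes 84 had a window, 108 windows in all, and 4 of these windows (3.70%), those of Anxa4, Cxcl1, Cxcl2 and Nfkbia, held it. A match is a description of the letters and not a measured binding site. Vcam1 and Sox9 had no window in the table.

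The TWEAK receptor and NF-κB list had 4 of its 5 members at 50 CPM or more called higher: the receptor Tnfrsf12a and the targets Nfkbia, Icam1 and Ier3. All but Icam1 reached the level in Havcr1-negative cells, where the list had 4 members and 3 calls. Nfkbia, the inhibitor IκBα and itself a target of the pathway, measured 449, 518, 144 and 219 CPM against 143, 137, 112 and 69.2. Icam1, an adhesion ligand for leukocytes, measured 209, 231, 64.9 and 93.1 CPM against 51.6, 68.5, 54.7 and 34.4, close to the 2-fold limit at a median log2 ratio of 1.00. Ier3, an immediate early gene tied to cell survival, measured 465, 431, 349.9 and 242 CPM against 83.4, 75.7, 207 and 53.3. In all 3 the ratio in suffix 3 was the lowest, at 0.36, 0.25 and 0.76.

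The cytoskeleton and YAP target list had 12 members at 50 CPM or more, with 4 higher (Ankrd1, Myof, Tagln2 and Tubb2a) and none lower, and Tagln2 was the 1 call among the 9 at that level in Havcr1-negative cells. Tagln2, an actin-binding protein of the transgelin family, measured 552, 426, 392 and 360.0 CPM against 158, 118, 312 and 113. Actb, β-actin, did not move with it, at log2 ratios of 0.12, 0.16, -0.02 and 0.05. Ccn1, another common YAP target, had ratios of 0.81, 0.05, -0.15 and -0.75. The AP-1 and immediate early list had 12 members at that level, of which Fosl2 and Myc were higher and Dusp1 lower, with Fosl2 at that level only in Havcr1-positive cells. Myc, a growth-promoting transcription factor, measured 476, 214, 164 and 155 CPM against 90.3, 68.2, 85.7 and 89.3. The abundant subunits of AP-1 were not: Jun had ratios of -0.31, -0.53, -0.64 and -0.74 and Fos 0.34, 0.20, -0.74 and -0.19. Dusp1, a phosphatase that limits MAP kinase signalling, measured 184, 271, 363 and 242 CPM against 495, 685, 747 and 660.4. Of 4 growth factor genes at this level, Pdgfb, a ligand for pericytes and fibroblasts, was higher and reached the level only through the Havcr1-positive cells, at 125, 192, 44.3 and 51.7 CPM against 11.7, 20.8, 26.4 and 11.99, while Hbegf, an EGF receptor ligand, had ratios of 0.69, 0.70, 0.57 and 0.45.

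A second pair of promoters is shown for genes among the 15 with the highest ratio that hold an AP-1 or a TEAD motif, the TEAD factors being the DNA-binding partners of YAP. The Anxa2 stretch is chr9:69453433-69453619 with the AP-1 motif TGANTCA in capitals, and the Hspb1 stretch is chr5:135887669-135887918 with the TEAD motif GGAATG in capitals, both on the plus strand.
Anxa2: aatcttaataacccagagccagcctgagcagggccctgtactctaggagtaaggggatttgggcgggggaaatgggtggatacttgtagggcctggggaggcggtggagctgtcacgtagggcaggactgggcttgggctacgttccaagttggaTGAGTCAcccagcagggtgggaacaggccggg
Hspb1: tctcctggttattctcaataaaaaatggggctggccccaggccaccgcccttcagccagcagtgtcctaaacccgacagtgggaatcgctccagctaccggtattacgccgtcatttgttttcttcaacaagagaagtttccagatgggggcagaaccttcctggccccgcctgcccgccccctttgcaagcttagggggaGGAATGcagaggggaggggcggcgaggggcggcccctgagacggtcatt

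The AP-1 motif spans bases 32 to 26 before the Anxa2 gene start, and the pattern, with its free middle base, matches on both strands at once. It lay in 6.75% of all windows and 12.0% of the 108 windows of called-higher genes. The TEAD motif spans bases 49 to 44 before the Hspb1 start. On either strand, GGAATG lay in 12.6% of all windows and 18.5% of those of the called-higher genes, among them Ankrd1, Gdf15, Fga and Fgb. The ATF4 motif TGATGNAA lay in 3.45% and 3.70%, and the STAT motif TTCCNGGAA in 0.913% and 3.70%. All were searched on both strands, a window could hold several motifs, and no test was made of these shares. The set of all windows, here and for NF-κB, also holds genes under the level limit, so both shares of a motif come from unlike sets.

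The antioxidant list held 1 higher and 1 lower call and the p53 list 1 higher call, beside 3.45% higher and 2.34% lower over all genes. The higher ones, Srxn1 and Cdkn1a, reached 50 CPM only in Havcr1-positive cells. At that level in Havcr1-negative cells, the lists had 6 and 3 genes, none of them higher. Of 8 Nrf2 and metallothionein genes at 50 CPM or more, Srxn1 (sulfiredoxin) was higher, at 111, 85.7, 90.4 and 97.2 CPM against 26.02, 24.7, 43.8 and 31.2, and Osgin1, an oxidative stress-induced growth inhibitor, was lower, at 223, 128, 187 and 223 against 775, 511, 248 and 513. Hmox1, heme oxygenase 1, had log2 ratios of 0.80, 0.13, 0.44 and 0.19. Of 5 p53 targets Cdkn1a was the one called, with Ccng1 at 0.04, 0.26, 0.65 and 0.08 and Mdm2 at 0.46, 0.69, 0.04 and -0.33. None of 8 iron and ferroptosis genes was called, and Gpx4, the lipid peroxide-detoxifying enzyme, differed little, at 0.08, -0.01, 0.08 and -0.01.

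Some transport genes were lower. Of the proximal tubule transporter list, 21 of 25 genes reached 50 CPM, 5 were called lower and none higher, with Slc7a8 at that level only in Havcr1-negative cells, and the median log2 ratio was -0.39 against 0.06 over all genes, with -0.65 in suffix 2 and -0.23 in suffix 3. Slc5a12, a lactate and monocarboxylate transporter of the first tubule segment, measured 18.2, 31.7, 85.9 and 78.6 CPM in Havcr1-positive cells and 94.7, 208, 288 and 192 in Havcr1-negative ones. All 4 positive values lay below all 4 negative ones, and the log2 ratio was -2.70 in suffix 2 (-3.16 to -2.30) and -1.74 in suffix 3 (-1.91 to -1.58). Slc6a19, the main carrier of neutral amino acids, measured 16.4, 34.4, 66.3 and 55.9 CPM against 113, 161, 167 and 109. Slc5a2, the glucose carrier SGLT2, measured 38.2, 88.4, 114 and 139 CPM against 156, 234, 271 and 286. The amino acid exchanger gene Slc7a8 and the organic anion carrier gene Slc22a8 were the other two, with median ratios of -1.48 and -1.06.

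Other carriers did not follow. Slc13a1, the sodium-sulfate carrier, was above 0 in each library, with log2 ratios of 0.98, 0.99, 0.30 and 1.01, and stayed short of the median limit. Slc22a6, an organic anion carrier, was lower in suffix 2 and higher in suffix 3, at -0.94 and 0.34. Slc7a13, a carrier of the last proximal segment in mice, had -1.40 in suffix 2 and 0.25 in suffix 3 (interval -0.04 to 0.52). Kap, an androgen-regulated gene of mouse proximal tubule, was also opposed, at 25944 CPM against 40272 in suffix 2 and 19902 against 8797 in suffix 3. Havcr1-negative cells of suffix 3 held the least Kap of any library. Among 13 endocytosis and brush border genes Mep1b, a meprin subunit, was the one called lower, at 50 CPM only in Havcr1-negative cells, and it rested on 32 cells and reversed with another Havcr1 limit. The endocytic receptor cubilin (Cubn) had ratios of -0.34, -0.39, -0.44 and -0.60 and its adaptor Dab2 -0.24, -0.31, -0.22 and -0.36.

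Metabolic genes held 6 calls among 18 of the gluconeogenesis and kidney metabolism list, all lower, with a list median of -0.65. G6pc, the enzyme that releases glucose, measured 54.5, 110.0, 89.3 and 180.0 CPM against 544, 618, 302 and 392, with no overlap between the classes. Gatm measured 133, 189.7, 166 and 352 CPM against 749, 685, 558 and 1166, and its ratios were close to each other in suffixes 2 to 4, at -1.85, -1.75 and -1.72. Pck1, which commits carbon to glucose synthesis, measured 683, 769, 909 and 581 CPM against 2333, 1733, 1782 and 1692. Miox, which breaks down inositol, measured 829, 781, 728 and 1676 CPM against 3289, 2486, 1325 and 3529. Ass1, argininosuccinate synthase, was also among the 6, with a median ratio of -1.11.

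Fatty acid oxidation showed 1 lower call, Acaa2, a thiolase, among 21 genes at 50 CPM or more. That is 4.76%, beside 2.67% of all genes at that level in Havcr1-negative cells. The list median depended on the library, at -0.67 in suffix 2 and 0.028 in suffix 3. Cyp4b1, a fatty acid hydroxylase, was an example, at log2 ratios of -1.05 and 0.36. Of 18 glycolysis and hypoxia genes, 6 reached 50 CPM and none of these was called, with a list median of -0.08. The other members were under the limit and not called, so these 6 genes do not stand for the whole list. Pfkp measured 57.4 against 11.1 CPM in suffix 2 and 21.2 against 14.4 in suffix 3. Pfkfb3 measured 25.7 against 3.27 and 13.0 against 6.88. Pdk1 was lower in both, at 2.03 against 2.65 and 3.71 against 6.22. Of 19 nephron transcription factor genes, 7 reached 50 CPM. Of these Maf, a factor of mature proximal tubule, was called lower, at 129, 273, 246 and 310.4 CPM against 303, 578, 498 and 399. Hnf4a, the main regulator of that segment, had ratios of -0.75, -0.37, -0.27 and -0.32, and Pax8, a factor of nephron development, had 0.57, 0.75, 0.49 and 0.50.

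The remaining genes with the lowest ratios were a mixed set, and 10 of the 15 lowest reached 50 CPM only in the Havcr1-negative cells. Klk1, tissue kallikrein, had the lowest median, -3.99, at 25.4, 1.35, 33.1 and 2.07 CPM against 70.05, 47.8, 297 and 82.4, and 1 cell held 30.3% of its UMIs in Havcr1-positive cells. After thinning, Klk1 was present in 60.96% of thick ascending limb barcodes, in 9.54% of Havcr1-positive and 12.4% of Havcr1-negative cells of suffix 3, and in 0 of 103 and 1.77% in suffix 2. Mal and Umod, genes of the thick ascending limb, were lower too. Their sign reversed when cells with over 5 UMIs of other cell types' markers were left out, to 0.043 for Mal and 0.62 for Umod. Umod is itself among those markers, so its reversal is partly built in. Snhg11, a long noncoding RNA host gene, measured 18.2, 31.7, 30.2 and 20.7 CPM against 87.1, 151, 141 and 82.7, nearly the same ratio in each library. Car3 and Car14, carbonic anhydrases, Cyp2d26, a cytochrome P450, Spp2, a secreted phosphoprotein, and Osr2, a transcription factor, had median ratios of -2.21, -1.71, -1.77, -1.74 and -1.74.

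Immune and matrix lists were split by library. Complement C3, at 50 CPM only in Havcr1-positive cells, was the one call among 8 antigen presentation and complement genes, at 239.8, 789, 57.5 and 482 CPM against 28.9, 47.9, 30.4 and 27.8. B2m, the light chain of MHC class I, had log2 ratios of 1.15, 1.46, -0.10 and 1.40, H2-K1, a heavy chain, 1.60, 1.87, -0.15 and 1.94, and Cd74, the MHC class II invariant chain, 1.47, 2.06, -0.57 and 2.91. Each was above 0 in suffixes 1, 2 and 4 and below 0 in suffix 3. Of 8 matrix and protease genes, Col18a1, a basement membrane collagen, and Adamts1, a secreted protease, were higher (Col18a1 at 50 CPM only in Havcr1-positive cells), with log2 ratios of 2.05, 2.35, 0.12 and 1.39 and 1.88, 1.58, 0.79 and 0.91. Of 3 cell cycle genes at 50 CPM or more other than the ones the choice used, none was called. Stmn1, a tubulin-binding protein of dividing cells, had ratios of 1.45, 1.20, 0.04 and 1.08.

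The libraries with the most cells differed in the size of the same contrast. Taken alone, suffix 2 placed 223 genes at 2-fold or more higher and 135 lower, and suffix 3 placed 43 and 53. Suffix 1 gave 232 and 201, and suffix 4 gave 162 and 120, with fewer cells. Of the 103 called-higher genes, 100 had the larger ratio in suffix 2. The 103 were picked by the mean of these same 2 ratios, and suffix 2 had more genes past 2-fold. This count and the medians that follow therefore come in part from the choice, and they were not made over all 2989 genes. Both terms of the ratio moved: the median gene of the 103 was higher by 0.74 (log2) in the Havcr1-negative cells of suffix 3 than in those of suffix 2, while the same median over the Havcr1-positive cells was -0.53. In all, 807 of the 2989 genes had opposite signs in the 2 libraries. Which conditions the libraries came from, and so whether the gap follows time after injury, cannot be told apart from other differences between them.

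**Figure D4:**
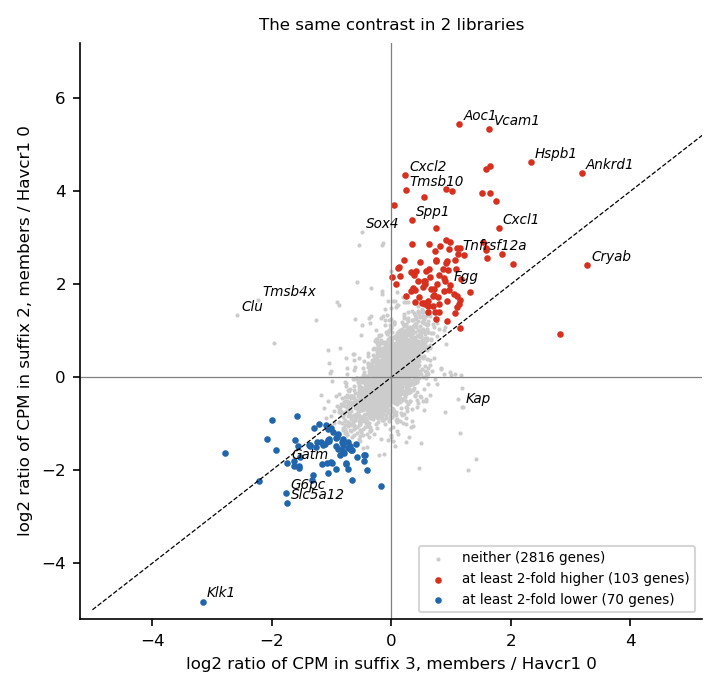
The log2 ratio of CPM between Havcr1-positive and Havcr1-negative cells in suffix 3 (x axis) and suffix 2 (y axis) for 2989 genes, each a point, with genes called higher in red and lower in blue and a dashed line of equality. Red points lie mostly above the line, 100 of 103 with a larger ratio in suffix 2, and Cryab lies below it. Red points were chosen by the mean of both ratios, which fixes this count in part.

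Genes with the widest gap between these libraries were Aoc1, Cxcl2, Clu, Tmsb4x, Tmsb10, Vcam1, Gc, Sox4, Sh3bgrl3 and Sfn. Aoc1 measured 50.9, 138, 14.3 and 141 CPM in the Havcr1-positive cells, with 138 in suffix 2 and 14.3 in suffix 3 against 3.17 and 6.55 in Havcr1-negative ones. Tmsb10, a thymosin that binds actin monomers, measured 343, 367, 113 and 209 CPM against 35.8, 22.7, 95.4 and 24.00. Its relative Tmsb4x, abundant in leukocytes, was opposed between the libraries, at 537 CPM in Havcr1-positive and 169.8 in Havcr1-negative cells of suffix 2 and at 148 and 693 in suffix 3. Gc, the vitamin D-binding protein, measured 163 against 12.6 CPM in suffix 2 and 31.3 against 30.6 in suffix 3.

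The Havcr1-positive cells also differed among themselves within a library. After thinning, the Fano factor, the variance over the mean, had a median of 1.07 over 3339 genes with a mean of at least 0.1 UMI, near the value of 1 that pure counting gives. The 10 highest were Malat1, Kap, Spp1, Cryab, S100a6, mt-Atp6, mt-Co3, Fth1, mt-Cytb and Clu. This factor can rise with the mean, so the ranking favours abundant transcripts. In suffixes 2 and 3, mt-Atp6 had factors of 14.0 and 15.4 at means of 55.3 and 50.9 UMIs. Clu had 9.23 and 13.9 at means of 0.417 and 0.84. Spp1 had Fano factors of 41.7 in suffix 2 and 50.1 in suffix 3 at means of 60.9 and 60.6 UMIs a cell. Kap had 74.03 and 55.2. Cryab was much more uneven in suffix 3, at 38.4, than in suffix 2, at 5.31. S100a6, a calcium-binding protein of injured epithelium and of other cell types, had 1 cell with 24.6% of its UMIs, and 170 of the 503 cells held any.

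Vcam1 divided the cells. A Vcam1 UMI was present in 21 of 41 Havcr1-positive cells of suffix 1, 57 of 103 of suffix 2, 13 of 325 of suffix 3 and 6 of 34 of suffix 4. After thinning the shares were 34.1%, 37.9%, 1.85% and 14.7%, with intervals of 28.5 to 47.96 in suffix 2 and 0.68 to 3.97 in suffix 3. Havcr1-negative cells had it in 2.56% in suffix 2 and 0.356% in suffix 3. Leukocyte and endothelial barcodes, some of which express Vcam1, had it in 6.53% and 10.7%.

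In suffix 2, the 57 cells with a Vcam1 UMI and the 46 without one differed in other genes. Ccl2 stood at 221 CPM with Vcam1 and 23.7 without, C3 at 1228 and 127, and Sox4 at 317 and 42.3. Havcr1 was higher with Vcam1 too, at 1045 against 608 CPM. Fgg was the reverse, at 155 CPM with Vcam1 and 613 without, and so was Kap, at 17631 and 38471. Tnfrsf12a was close in both, at 364 and 330.0. In the 13 cells with and 312 without Vcam1 of suffix 3, Fgg and Havcr1 lay the other way: Fgg stood at 768 and 384 CPM and Havcr1 at 473 and 560.2. Ccl2 did too, at 0 and 1.40, both near the floor. Kap, at 11645 and 20357, C3, at 122 and 54.0, and Sox4, at 66.1 and 47.3, did not. The split used Vcam1 itself and the cells with it were deeper in suffix 2, with a median of 13553 UMIs against 10930, so these values are a description.

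**Figure D5:**
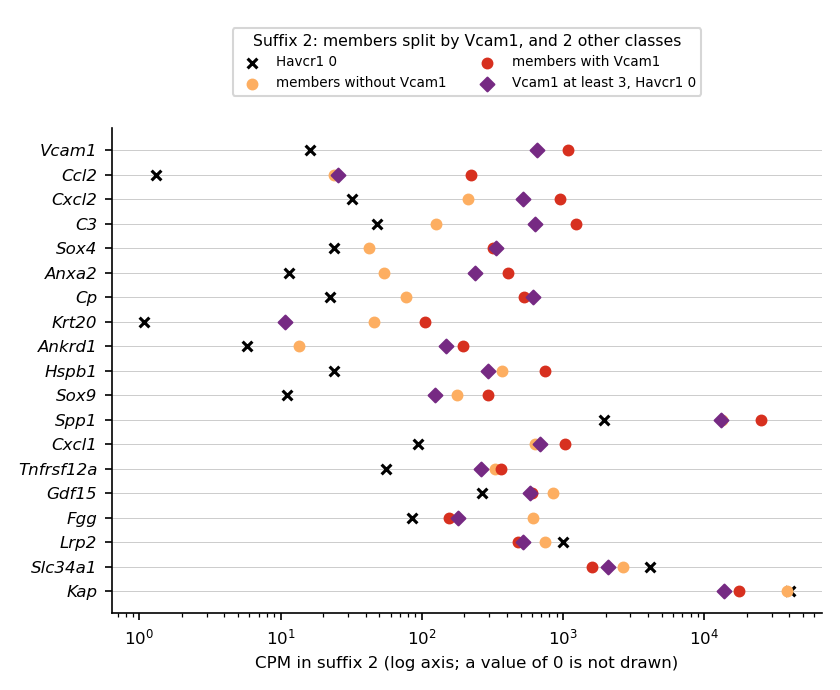
Level of 19 genes (x axis, CPM, log axis) in suffix 2 in Havcr1-negative cells (crosses), Havcr1-positive cells without (orange) and with (red) a Vcam1 UMI, and cells with at least 3 Vcam1 UMIs and no Havcr1 UMI (purple diamonds). Fgg is highest in Havcr1-positive cells without Vcam1, at 613 CPM, and Krt20 is higher in both Havcr1-positive classes than in the Vcam1-positive cells that lack Havcr1, at 10.7 CPM.

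Other classes set beside the Havcr1-positive cells were barcodes with Vcam1, tubule genes and no Havcr1, and Havcr1-positive cells with a proliferation gene. Their likeness was not measured. Cells with at least 3 Vcam1 UMIs and no Havcr1 numbered 56, 59, 15, 8 and 3 in suffixes 1 to 5, so they were not concentrated in the library with the most Havcr1-positive cells. In suffix 2 they also held much Spp1, at 13126 CPM against 20522, and much Cxcl1, at 686 against 874. Of the proposed marks, Tnfrsf12a stood at 264 against 350.4 CPM in them and Gdf15 at 585 against 703, beside 55.8 and 266 in Havcr1-negative cells. They held less Krt20, at 10.7 CPM against 81.7, less Fgg, at 179.8 against 338, and more Akap12, a scaffold protein of the thin limb and parietal list, at 452 against 96.5. Cp of that list stood at 617 against 350, and in suffix 3 at 1113 against 46.7. Of other cell types' genes, C1qa stood at 69.8 against 1.35 CPM and Col1a2 at 40.3 against 0 in suffix 2, while Rgs5 was lower, at 8.05 against 11.5. In suffix 3 C1qa stood at 8.87 against 1.06 and Col1a2 at 0 against 0.530. The part of other cells in this class was not tested. In suffix 3, with 15 such cells, Krt20, Fgg and Akap12 lay on the same side, at 13.3, 39.9 and 798 CPM against 38.2, 404 and 35.5. Gdf15, at 333 CPM, and Fgg were there below the Havcr1-negative cells, at 530.4 and 205. Tnfrsf12a stood at 381 against 467 CPM, and Spp1 and Cxcl1 were above the Havcr1-positive cells, at 31432 against 19543 and 798 against 538. Since these classes were cut on Vcam1 and Havcr1, neither gene is compared between them.

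Havcr1-positive cells with Mki67 or Top2a, which the choice left out, numbered 32 in suffix 3 and 8 in suffix 4 and 0 in the other libraries. In suffix 3 they held less Fgg than the Havcr1-positive cells, at 187 CPM against 404, less Hspb1, at 74.4 against 397, and more Gatm, at 341 against 166. Stmn1 stood at 336 against 84.6 CPM.

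Summed over cells, markers of several other kidney and immune cell types took a smaller share of the UMIs in the Havcr1-positive cells. The summed level of 6 thick ascending limb genes ran from 20.7 to 121 CPM over suffixes 1 to 4 in Havcr1-positive cells and from 95.3 to 460.2 in Havcr1-negative ones. The 8 macrophage and monocyte genes summed to 29.0 to 45.4 CPM against 72.4 to 159, and the 6 collecting duct principal cell genes to 10.8 to 30.9 against 59.1 to 141. The 6 neutrophil genes summed to 0 to 93.3 CPM against 20.04 to 139.5. The 7 endothelial genes, of which 4 were at 0, summed to 3.18 to 10.3 CPM against 2.44 to 7.73. The list for thin limb and parietal epithelium was higher in each of suffixes 1 to 4: Cldn1, Akap12 and Cp were called higher, each at 50 CPM only in the Havcr1-positive cells, and the 6 genes summed to 156 to 707 CPM against 24.7 to 64.3. Cldn1, claudin 1 of tight junctions, measured 127, 93.2, 42.9 and 45.5 CPM against 14.1, 14.03, 14.4 and 6.65, and Cp 358, 349.7, 46.7 and 166 against 22.97, 22.5, 16.4 and 5.93. Counted per barcode, the marker lists of all 12 other cell types had over 5 UMIs in 65.9, 43.7, 23.4 and 17.6% of Havcr1-positive cells of suffixes 1 to 4, against 7.57, 8.62, 14.2 and 3.07% of Havcr1-negative ones, which were shallower. Without the thin limb and parietal genes and Wnk1, a kinase of the distal tubule list, the shares were 7.32, 4.85, 8.31 and 2.94% against 5.50, 5.39, 11.1 and 1.92%. The part of thin limb or parietal cells, or of 2 cells under 1 barcode, in these genes was not tested.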

How the data were processed

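Per the labels and the study's methods, mouse kidney cells were captured with a 10x Genomics 3′ kit, and the authors processed the reads with Cell Ranger 6.0 against mm10, as the submitters' processing notes list. The deposited matrix holds raw UMI counts of 32285 genes in 10474594 barcodes of 5 suffixes, with no cell calls and no map from suffix to sample. No further column was used. The members and the gene lists were chosen with earlier results of these data known.

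Cells were filtered as the report states. UMIs were summed per class and suffix with Python 3.11.15 (numpy 2.4.6, scipy 1.17.1, pandas 2.3.3), scaled to CPM over all genes, and compared as log2 ratios after adding 0.5 UMI to each sum. The 7 genes of the choice were left out of all gene counts. The value of a gene is the median over suffixes with at least 50 members, which with suffixes 2 and 3 is the mean of both. Intervals of ratios are exact conditional binomial and those of shares Clopper-Pearson, at 95%. A count of 0 allows a share of 3 counts of the total. The UMI thinning used 3000 per cell. Leukocyte, endothelial and thick ascending limb controls needed at least 2 UMIs of their own markers and no UMI of Lrp2 or Slc34a1. No doublet caller was run, and depth limits and marker limits stand in for it. The ratio script was tested on simulated data.

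Genes named are those of the lists, the 15 highest and 15 lowest ratios among called genes, the 10 highest Fano factors and the 10 widest gaps between suffixes. One gene of the metabolism list is not reported here by name. Coordinates are from GENCODE vM21 (GRCm38, the build of mm10), and promoter sequences from RefSeq on GRCm38.p6. Alternatives changed the Havcr1, mitochondrial, depth, tubule and other-marker limits, the average, the scaling, the level filter, the fold and the suffixes. Cell Ranger counts only reads that map to 1 gene, so genes with near-identical copies can be undercounted.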

Additional observations from a re-analysis of the deposited data

Results flagged for a closer look

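Havcr1 was also present in barcodes outside the comparison. With at least 3 Havcr1 UMIs, 27 barcodes within the depth and mitochondrial limits had fewer than 2 UMIs of Lrp2 and Slc34a1 combined. Of 383 leukocyte barcodes, chosen to hold no Lrp2 or Slc34a1 UMI, 0 reached 3 UMIs. A further 39 barcodes with at least 3 Havcr1 UMIs had over 25% of their UMIs on mitochondrial genes. These came to notice as signal in data that the comparison did not use.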

How the results depend on the processing

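Only suffixes 2 and 3 reached 50 cells, so a median rests on 2 libraries of unlike size, and the libraries cannot be told apart from the conditions. No paired test was made, because the suffixes carry no replicate numbers and the matrix counted as 1 sample. Each ratio already sets both classes of 1 suffix against each other. Depth limits the calls of genes near 50 CPM. The limit of 30 cells, that of 10 Lrp2 and Slc34a1 UMIs and the marker limit without thin limb genes and Wnk1 were chosen after seeing the data. With 30 cells, which takes in suffixes 1 and 4, 142 genes were higher and 93 lower.

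The 503 cells became 1014 with at least 2 Havcr1 UMIs, 230 with at least 5, and 276 with at most 10% mitochondrial UMIs. The 103 higher and 70 lower genes became 173 and 149 with at least 5 Havcr1 UMIs, 191 and 120 at a level of 20 CPM, 46 and 15 at 3-fold, and 6659 and 882 with no level filter. Requiring 50 CPM in Havcr1-negative cells, an alternative also chosen after seeing the data, left 33 higher and 70 lower. Lower genes numbered 128 at the mitochondrial limit of 10% and 118 with UMIs summed over suffixes. Higher genes numbered 67 with depth matched. With 1 suffix left out at a time the counts ran from 40 (without suffix 2) to 273 (without suffix 3) higher and from 54 to 139 lower. Of the 103 genes, 30 were among the 40 and 99 among the 273. The causes were not tested beyond what each limit itself removes.

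Leaving out 1 suffix at a time, list medians (log2) ran from 0.47 to 2.29 for injury genes, 0.95 to 1.39 for coagulation, 0.36 to 1.91 for TWEAK and NF-κB, 0.33 to 2.76 for cytokines, -0.67 to 0.028 for fatty acid oxidation, -0.032 to 1.60 for antigen presentation and complement, -0.36 to 0.17 for heat shock, 1.58 to 2.78 for thin limb markers and 0.98 to 1.99 for the marker genes Fgg, Gdf15 and Tnfrsf12a. With 30 cells the medians were 2.69 for cytokines, -0.27 for heat shock, 2.77 for thin limb and 2.01 for the marker genes. With UMIs summed over suffixes they were 2.10 for coagulation, -0.59 for fatty acid oxidation, 2.82 for thin limb and 2.16 for the marker genes. Fatty acid oxidation moved to -0.53 with at least 5 Havcr1 UMIs, -0.52 at 10% mitochondrial UMIs, -0.042 at most 5 other-type marker UMIs and -0.40 relative to the median of all genes. Thin limb moved to 2.75 with at least 5 Havcr1 UMIs, 2.15 at 5000 UMIs or more, 2.09 at 20000 UMIs or fewer, 1.45 with depth matched, 2.15 at most 5 other-type marker UMIs, 2.16 without mitochondrial genes in the totals and 2.12 relative to the median. The marker genes moved to 1.98 with at least 2 Havcr1 UMIs. The other 445 of 480 list medians stayed within the exact binomial interval of their list's median. That count is no measure of stability. Medians used suffixes 2 and 3 alone, so leaving out suffix 1, 4 or 5 could not move a list median or turn a gene's sign. For the shortest lists the interval also ran from the lowest to the highest gene. Signs turned for Mal (0.043) and Umod (0.62, and 0.58 without thin limb genes and Wnk1) when cells with over 5 other-type marker UMIs were left out, and for Mep1b (0.035) with at least 2 Havcr1 UMIs, in 4 of 1480 values over 74 genes and 20 alternatives. Umod is itself among those markers.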

Other observations

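Genes beyond the lists and the extreme 15 were chosen here after their values were seen. Timd2, a close relative of Havcr1 in the TIM family, was called higher and measured 259.8, 179, 183 and 176 CPM in Havcr1-positive cells of suffixes 1 to 4 against 79.6, 85.6, 82.3 and 67.5 in Havcr1-negative ones. Its log2 ratios in suffixes 2 and 3 were 1.07 and 1.16, close to each other, unlike those of most called-higher genes, and reads shared with Havcr1 would be uncertain in both. Lrg1, a secreted leucine-rich glycoprotein of the acute phase, had ratios of 2.02, 2.43, 2.04 and 2.27, again of one size. Nrg1, neuregulin 1, a ligand of ErbB receptors, measured 243, 115, 133 and 118 CPM against 37.4, 32.1, 53.5 and 83.8. Lgals3, galectin 3, measured 394, 176, 467 and 166 CPM against 35.4, 28.7, 199.8 and 47.4.

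Among the lower genes, Sgk1 and Tsc22d3, both known to be induced by corticosteroid hormones, had log2 ratios of -1.68, -1.47, -0.93 and -1.55 and -0.79, -1.47, -1.56 and -1.90. Tsc22d3 measured 90.8, 26.3, 24.7 and 22.8 CPM in Havcr1-positive cells against 158, 74.1, 72.99 and 88.9 in Havcr1-negative ones, and Sgk1 151, 102, 213 and 277 against 484, 284, 405 and 815.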
